A study of Mus musculus with 4 samples.

Results

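The genes described here are 10 genes of leukocyte signalling and the leukocyte cytoskeleton, namely Ptprc (which encodes CD45), Cd53, Laptm5, Vav1, Rac2, Arhgdib, Was, Coro1a, Lcp1 and Lsp1. They were chosen by name for their function, with earlier results of these data known, so counts over them are descriptions. Every probe set whose only annotated gene symbol is one of these names was taken. That gave 17 of the 12422 tested probe sets, and 10 of the 8251 genes with a symbol. Of the 10 genes, 5 have 1 probe set and 5 have more. A gene with more is represented in counts of genes by its brightest probe set over the 4 arrays.

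CD45 is a transmembrane tyrosine phosphatase found on nearly all nucleated blood cells, where it removes an inhibitory phosphate from Src-family kinases and so lets antigen and Fc receptors signal. Downstream, Vav1 loads Rac GTPases with GTP, Rac2 is the Rac protein of blood cells, and the product of Arhgdib holds Rac proteins in the cytosol. Was encodes WASP, which turns on branching of actin filaments by the Arp2/3 complex, while coronin 1A (Coro1a), L-plastin (Lcp1) and Lsp1 bind filamentous actin. Cd53 is a leukocyte tetraspanin of the cell surface and Laptm5 a lysosomal membrane protein of blood cells. Outside the blood lineage many of these tasks fall to widely expressed paralogs such as Rac1 and Pls3.

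RNA from mouse cells in culture was measured on 4 single-colour arrays, 2 titled Hemangioblast and 2 titled hCD4. All derive from 1 line of embryonic stem (ES) cells, Scl+/hCD4, in which human CD4 reports expression of Scl, the blood and endothelial transcription factor whose gene is Tal1. The ES cells were kept with LIF on STO feeder cells and then differentiated in serum for 2.75 days into embryoid bodies; cells double positive for Flk-1 and Scl were sorted from these as hemangioblasts, cells that can give rise to both blood and endothelium. Cells of the embryoid bodies were also replated, and the blast colonies they formed were picked one by one and then pooled. The labels do not settle which arrays hold which cells: sample sources speak of differentiated hemangioblasts and of cultured hCD4 ES cells, whereas the design text names the populations hCD4 and Blast. The groups are therefore called by their array titles, and every change is Hemangioblast minus hCD4. The 2 arrays of a group are not said to come from separate cultures, so the p-values here rest on a spread between arrays that may be technical.

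Median deposited intensity ran from 165 to 197 per array, and arrays of 1 group correlated across probe sets at 0.961 and 0.963, against 0.921 to 0.940 between groups. For the Gapdh control, the ratio of 3' to 5' signal, which rises as RNA degrades, was 1.33 and 1.03 in the Hemangioblast group, against 1.13 and 1.03 in the hCD4 group. For the actin control it was 1.63 and 1.16, against 1.36 and 1.12, so Hemangioblast replicate 1 had the highest ratio by both. Of 7 hemangioblast markers, 0 were called higher and 3 (Etv2, Gata2 and Kdr) lower on the arrays titled Hemangioblast, beside 3.43% and 1.95% of all genes. Fli1, Lmo2, Runx1 and Tal1 were not called, at log2 changes of -0.54, -0.56, -0.24 and -0.81. The markers were chosen with earlier results known, so the count is a description. That title is not taken here to name the more hemangioblast-like group, and which cells the arrays hold was not tested. With 2 arrays a group, precision is limited by their number.

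All 10 genes were higher on the Hemangioblast arrays than on the hCD4 arrays. Each passed an adjusted p of 0.05 in limma (Benjamini-Hochberg over all probe sets) by its brightest probe set, where 3.43% of all genes were called higher. The Hemangioblast values help to choose the brightest probe set, so this count partly depends on them. For Ptprc the chosen probe set had an hCD4 mean of 15.6. Another, with 29.2, was brighter on the hCD4 arrays and was not called (limma adjusted p = 0.0766). All 10 also differed at least 2-fold in each of the 4 pairings of a Hemangioblast with an hCD4 array, against 2.51% of all genes, and in all 10 both Hemangioblast arrays lay above both hCD4 arrays, as in 24.5% of all genes. Their median log2 change was 2.51, with a range of 1.78 to 4.17, beside a median of 0.02 over all genes. Without Hemangioblast replicate 2, 9 of the 10 remained past the threshold, Vav1 being the exception. Since these are bulk samples, more cells of a type and more RNA per cell cannot be told apart. Counted by probe set, 13 of 17 were called higher and 0 lower, where 2.91% of all probe sets were called higher and 1.56% lower. At least 2-fold in all 4 pairings were 14 of the 17, against 2.29% of all probe sets, and the same number had both Hemangioblast arrays on top, against 24.8%. The 4 that did not pass (2 of Ptprc and 1 each of Vav1 and Lcp1) are the 4 whose mean scaled intensity over all arrays was under 100. A rise on the Hemangioblast arrays lifts that mean, so this split is partly set by the change itself. In 9 of the 17 the mean of at least 1 group was under 100, among them called probe sets of Ptprc, Cd53 and Lsp1. The background share itself depends on the arrays: 283 of 8251 genes were called higher with all arrays, and 180, 172 and 124 without Hemangioblast replicate 2, hCD4 replicate 1 and hCD4 replicate 2.

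**Figure D1:**
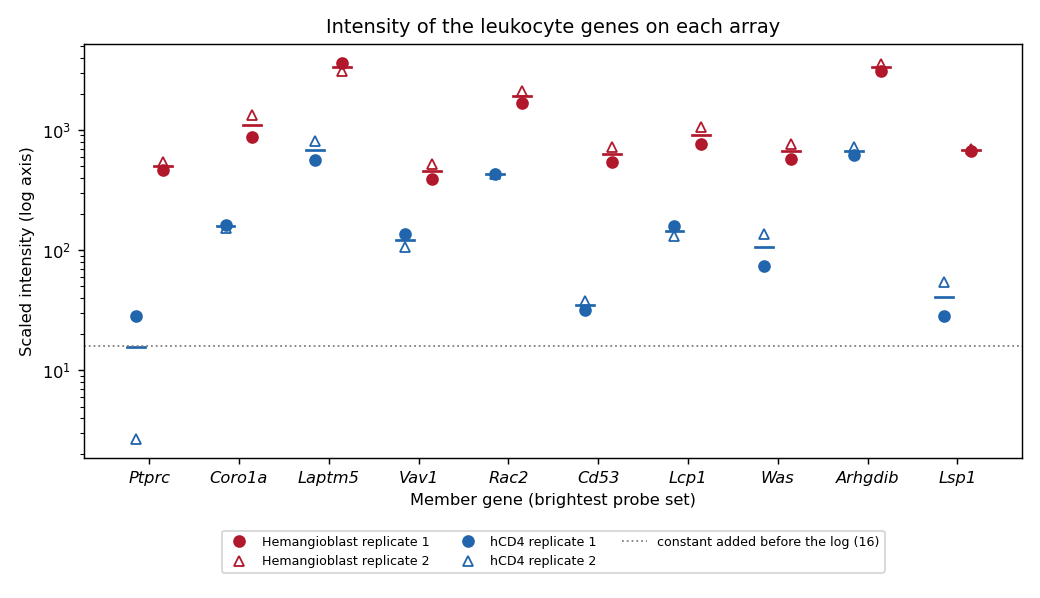
Scaled intensity (log axis, arbitrary units) of each gene's brightest probe set on each of the 4 arrays; filled circles are replicate 1, open triangles replicate 2 and short lines the mean of a group, and the dotted line is the constant of 16 added before logs were taken. For all 10 genes both Hemangioblast arrays (red) lie above both hCD4 arrays (blue), and Ptprc falls below the dotted line on 1 hCD4 array.

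Because the genes moved together, the 250 bases before their annotated transcription starts were searched for short core motifs of blood transcription factors. RefSeq windows of build GRCm38.p6 were matched for 8 of the 10 genes, as 13 windows, since several genes have more than 1 start. Rac2 and Lsp1 were not matched. GAGGAA, a core bound by Ets-family factors including the myeloid regulator PU.1, was found on either strand in 5 of 13 windows (38.5%), against 23.3% of all 32851 windows of that length. The GATA core AGATAA was in 2 of 13 (9.99% of all windows), the Runx core TGTGGT in 2 of 13 (14% of all) and the TATA box TATAAA in 3 of 13 (12.4% of all). No matches of different motifs overlapped in the 13 windows. The windows that hold GAGGAA are shown 5′ to 3′ on the strand of the gene, ending at the base before the start, with the motif in capitals (TTCCTC where it lies on the opposite strand). They lie at chr1:138175306-138175555 (minus strand, Ptprc, 1 of its 2 starts), chr3:106790150-106790399 (minus strand, Cd53), chr4:130913066-130913315 (plus strand, Laptm5), chr17:57278850-57279099 (plus strand, Vav1) and chr6:136939528-136939777 (minus strand, Arhgdib, 1 of its 3 starts).
Ptprc: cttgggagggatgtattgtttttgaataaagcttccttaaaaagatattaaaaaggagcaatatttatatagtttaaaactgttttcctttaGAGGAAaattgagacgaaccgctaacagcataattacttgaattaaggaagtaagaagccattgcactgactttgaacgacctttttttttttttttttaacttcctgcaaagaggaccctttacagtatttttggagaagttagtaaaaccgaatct
Cd53: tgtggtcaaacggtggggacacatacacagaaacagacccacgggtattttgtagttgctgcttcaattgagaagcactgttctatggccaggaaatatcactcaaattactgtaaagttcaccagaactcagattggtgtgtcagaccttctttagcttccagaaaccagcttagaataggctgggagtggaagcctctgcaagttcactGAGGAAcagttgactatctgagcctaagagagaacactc
Laptm5: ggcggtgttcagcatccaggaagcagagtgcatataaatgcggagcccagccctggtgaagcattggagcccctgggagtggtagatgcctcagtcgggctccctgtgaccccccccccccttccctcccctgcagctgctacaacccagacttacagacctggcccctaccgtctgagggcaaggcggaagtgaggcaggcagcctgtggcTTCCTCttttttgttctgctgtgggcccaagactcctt
Vav1: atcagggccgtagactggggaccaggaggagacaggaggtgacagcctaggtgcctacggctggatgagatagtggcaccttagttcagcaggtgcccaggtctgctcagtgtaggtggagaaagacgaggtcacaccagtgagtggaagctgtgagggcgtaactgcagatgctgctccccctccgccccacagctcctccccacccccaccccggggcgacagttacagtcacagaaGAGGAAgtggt
Arhgdib: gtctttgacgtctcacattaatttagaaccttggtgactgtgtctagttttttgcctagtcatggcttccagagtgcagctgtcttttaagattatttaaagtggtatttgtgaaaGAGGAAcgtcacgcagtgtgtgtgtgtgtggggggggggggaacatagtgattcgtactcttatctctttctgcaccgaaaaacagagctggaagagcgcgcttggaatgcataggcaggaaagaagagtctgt
The motif begins 158 bases before 1 of the 2 starts of Ptprc, 39 in Cd53, 38 in Laptm5, 11 in Vav1 and 134 in Arhgdib. The window of the other Ptprc start, which overlaps the one shown, holds 0 matches of GAGGAA and a match of AGATAA. A match describes the letters only, and no binding was measured here.

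Of the genes for membrane proteins, Ptprc, by its brightest probe set, had scaled intensities of 462 and 545 on the Hemangioblast arrays, against 28.5 and 2.67 on the hCD4 arrays. Both hCD4 arrays were thus dim, and they lay far apart for this gene on the log scale. Its log2 change was 4.17 (SE 0.424, 95% interval 3.19 to 5.14, limma adjusted p = 0.0011). It was 4.79 without hCD4 replicate 1 and 3.54 without hCD4 replicate 2, so its order against Cd53 and Lsp1 is not settled. The size depends on the constant added before the log, with 5.59 for a constant of 1 and 2.85 for 64. The other probe sets of Ptprc gave a different picture. One was at 106 and 102 against 16.5 and 41.9, so that the groups did not overlap, but its log2 change of 1.47 missed the threshold (adjusted p = 0.0766). The other was near the floor on all arrays, at 10.3 and 9.82 against 10.7 and 36.4 (log2 change -0.52, adjusted p = 0.644). A rise of CD45 RNA was therefore called by 1 of its 3 probe sets. The probe set with the change of 1.47 was at least 2-fold higher in all 4 pairings without passing, and the dimmest did not rise.

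Cd53, whose product organises receptors in the leukocyte membrane, was at 540 and 722 on the Hemangioblast arrays and at 32.0 and 37.7 on the hCD4 arrays. The hCD4 values were low and close together. The log2 change was 3.66 (SE 0.270, 95% interval 3.04 to 4.28, adjusted p = 0.000316), and it was 4.13 and 2.80 with constants of 1 and 64. Laptm5, whose product sits in lysosomes and directs receptors to breakdown, was bright on all arrays, at 3614 and 3118 against 565 and 803. The rise on the log2 scale was 2.29 (SE 0.192, limma adjusted p = 0.000532). Its second probe set gave nearly the same answer, with 2301 and 2275 against 363 and 386, tight replicates and a log2 change of 2.56 (SE 0.148, adjusted p = 0.000122). This was the smallest adjusted p among the 17 probe sets.

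Of the signalling proteins, Vav1, the exchange factor that activates Rac, changed least. Its brightest probe set was at 391 and 524 on the Hemangioblast arrays and at 135 and 107 on the hCD4 arrays. The groups were well apart, at a log2 change of 1.78 (SE 0.249, 95% interval 1.21 to 2.36, adjusted p = 0.00608). Without Hemangioblast replicate 2 the adjusted p was 0.0502. A second probe set of Vav1 was at 246 and 403 against 75.6 and 102 (log2 change 1.67, SE 0.310, adjusted p = 0.0217). That call was lost without Hemangioblast replicate 2 (adjusted p = 0.147), hCD4 replicate 1 (0.117) or hCD4 replicate 2 (0.0692) and when the variance model had no intensity trend (0.0791). The third probe set was dim and its groups overlapped, at 6.02 and 52.5 against 36.7 and 20.3 (adjusted p = 0.940).

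Rac2, the GTPase that drives the phagocyte oxidase and leukocyte migration, was at 1682 and 2126 on the Hemangioblast arrays and at 427 on both hCD4 arrays. The hCD4 replicates were almost identical, and the log2 change was 2.11 (SE 0.169, 95% interval 1.72 to 2.49, adjusted p = 0.000447). Arhgdib, whose product keeps Rac proteins inactive, was at 3116 and 3547 against 616 and 726. The rise on the log2 scale was 2.29 (SE 0.156, limma adjusted p = 0.000235). The hCD4 means of Laptm5, Rac2 and Arhgdib, at 684, 427 and 671, are large beside the added constant of 16.

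Among the cytoskeletal genes, Was was at 571 and 759 on the Hemangioblast arrays and at 74.4 and 137 on the hCD4 arrays. Apart from those of Ptprc, these hCD4 arrays lay farther apart on the log scale than the replicates of any other gene by its brightest probe set (log2 difference -0.76, replicate 1 minus replicate 2), and both lay far below the Hemangioblast arrays. Was rose by 2.52 (SE 0.296, 95% interval 1.84 to 3.20, adjusted p = 0.00242). Coro1a, whose product binds actin at the cell cortex and is needed for lymphocyte survival, was at 879 and 1332 against 162 and 154. Its log2 change was 2.66 (SE 0.229, adjusted p = 0.000571).

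Lcp1, the actin-bundling plastin of leukocytes, was at 762 and 1048 on the Hemangioblast arrays and at 157 and 131 on the hCD4 arrays. The rise on the log2 scale was 2.51 (SE 0.223, limma adjusted p = 0.000651). A second, dim probe set of Lcp1 varied widely within both groups, at 21.7 and 126 against 33.5 and 4.96, and did not pass (log2 change 1.19, SE 0.656, adjusted p = 0.451). Lsp1, an actin-binding protein of leukocytes, was at 670 and 700 against 28.3 and 54.0 by its brightest probe set. The log2 change was 3.65 (SE 0.289, 95% interval 2.99 to 4.32, adjusted p = 0.000414). Its other probe set agreed in direction and size, at 496 and 816 against 33.0 and 14.1 (log2 change 4.09, SE 0.358, adjusted p = 0.000602). With constants of 1 and 64 these changes were 4.09 and 2.84 for the first and 4.81 and 3.01 for the second.

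**Figure D2:**
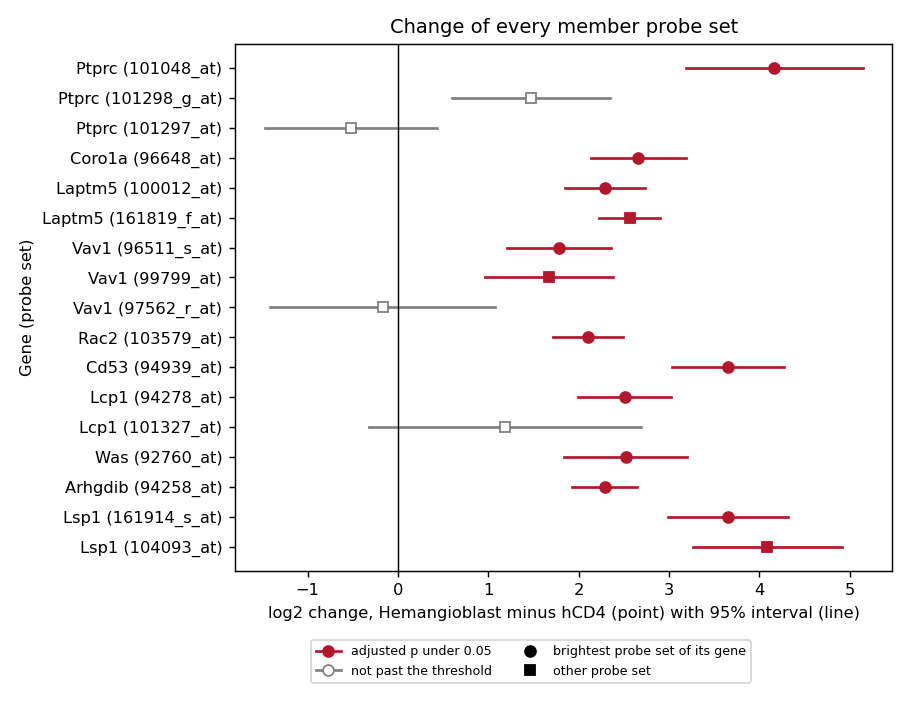
Log2 change, Hemangioblast minus hCD4, of all 17 probe sets with its 95% interval from limma; circles are the brightest probe set of a gene, squares the others, and red marks an adjusted p under 0.05. The 13 red intervals lie wholly above 0, and the 4 grey points belong to dim probe sets of Ptprc, Vav1 and Lcp1.

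The 10 genes fell into a steep and a moderate set. Ptprc, Cd53 and Lsp1 had log2 changes from 3.65 to 4.17, and their mean intensity on the hCD4 arrays was 15.6, 34.8 and 41.1. The other 7 lay between 1.78 and 2.66 and each had an hCD4 mean over 100, from 106 for Was to 684 for Laptm5. For the dim genes the constant of 16 sets part of the change, as the values with other constants show. By rank among 8251 genes, 6 of the 10 were within the top 50, 9 within the top 100 and Vav1 at 120. Between the Hemangioblast replicates, 9 of the 10 were higher on replicate 2, by a median log2 difference of 0.37 (replicate 1 minus replicate 2 of -0.37), with Laptm5 the exception. The share of all genes higher on replicate 2 was not counted. Without Hemangioblast replicate 1 the median log2 change of all genes was 0.07, and without replicate 2 it was -0.01. For the members these medians were 2.73 and 2.34. Between the hCD4 replicates 4 of the 10 were higher on replicate 1, at a median difference of -0.08. Summed marker levels also differed between Hemangioblast replicates 1 and 2, with 4488 and 5787 for macrophages and 1460 and 1774 for neutrophils. They were 2528 and 2919 for T cells and 560 and 685 for natural killer cells. The erythroid (37730 and 40330), megakaryocyte (1191 and 1288) and mast cell sums (777 and 816) were also higher on replicate 2. The same held for hemangioblast (3163 and 3655) and pluripotency markers (4373 and 4505). The endothelial sums lay the other way (2953 and 2646). So did the B cell sums (2675 and 2359), but through the 1 marker Vpreb1. It was at 695 and 155 on these arrays, a wider gap than that of the sums. The 3' to 5' ratios of both RNA controls were higher on replicate 1. The part of cell types or RNA quality in the replicate difference was not tested.

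**Figure D3:**
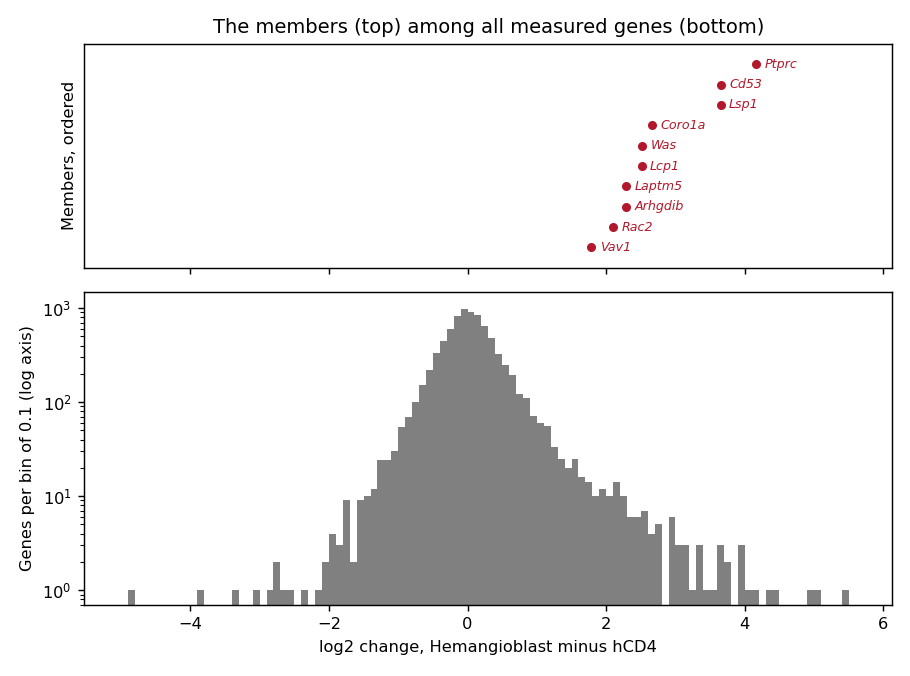
Log2 change, Hemangioblast minus hCD4, of the 10 genes in order of size (top) and of all 8251 genes in bins of 0.1 (bottom, log axis). The 10 lie from 1.78 to 4.17, in the thin right tail of the distribution, whose median is 0.02.

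The widely expressed paralogs of these genes were read beside them. Of 21 listed paralogs 16 were measured, 1 passed as higher (Cd9, 6.25%) and 1 as lower (Pls3), counts near the 3.43% and 1.95% of all genes, and the median log2 change was 0.17. For Rac1, the Rac of most tissues, intensities were 3873 and 3500 on the Hemangioblast arrays, against 3671 and 2940 on the hCD4 arrays, with overlapping groups (log2 change 0.16, 95% interval -0.20 to 0.53, adjusted p = 0.719). Rac3 had a log2 change of -0.08 (95% interval -0.69 to 0.53). Pls3, the plastin of non-blood tissues, moved opposite to Lcp1, from 657 and 628 on the hCD4 arrays to 292 and 275 on those titled Hemangioblast, a log2 change of -1.14 (SE 0.177, limma adjusted p = 0.0105). Both Pls3 groups were tight and far apart, but the call was lost without hCD4 replicate 1 (adjusted p = 0.0925) or replicate 2 (0.0829), without scaling (0.0543) and without an intensity trend (0.0694).

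Laptm4a and Laptm4b, lysosomal relatives of Laptm5, had log2 changes of -0.67 each (adjusted p = 0.239 and 0.0669). Coro1b and Coro1c, coronins of most cell types, had 0.86 and 0.29 (adjusted p = 0.0609 and 0.497), and Vav2 had -0.13 (95% interval -0.86 to 0.59). Among tetraspanins related to Cd53, Cd9 was at 1454 and 1647 against 808 and 563 and rose by 1.18 (SE 0.197, adjusted p = 0.0141), a call lost without hCD4 replicate 2 (0.111), without scaling (0.0841) and without an intensity trend (0.119). Cd63, Cd81, Cd82 and Cd151 had log2 changes of 0.87, 0.18, -0.23 and -0.43 and did not pass. Among receptor phosphatases related to Ptprc, Ptpre had 1.07 (adjusted p = 0.0602), Ptprj 0.69 and Ptpra 0.24. The 95% intervals of all 16 paralogs lay below that of their member gene by its brightest probe set. For the dimmer probe sets of Ptprc (0.60 to 2.35 and -1.47 to 0.43) and the dimmest of Vav1 (-1.42 to 1.08) this did not hold. The difference between the genes was not itself tested. Calls were gained as well as lost: without Hemangioblast replicate 1, Cd63 (adjusted p = 0.0245), Coro1b (0.0379) and Laptm4b (lower, 0.0178) passed, and with dim probe sets left out these and Ptpre did (0.0144 to 0.0262). The 2 calls among the 16 became 5 without Hemangioblast replicate 1, 1 without hCD4 replicate 1 and 0 without hCD4 replicate 2. Vav3, Pls1, Wasl, Arhgdia and Arhgdig were not analysed here. Was and Arhgdib therefore had no paralog to compare, and none was listed for Lsp1.

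**Figure D4:**
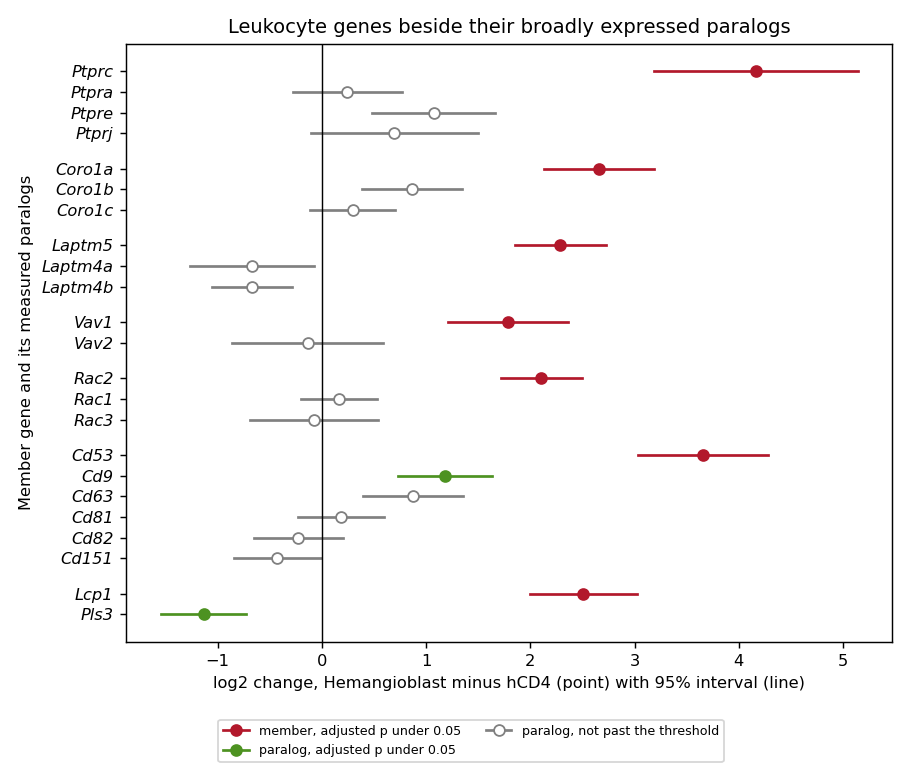
Log2 change, Hemangioblast minus hCD4, with its 95% interval. Member genes with a measured paralog are red. Their measured paralogs are listed under them, green where the adjusted p is under 0.05 and grey otherwise. Was, Arhgdib and Lsp1 have no measured paralog and are not drawn. Member intervals, by the brightest probe set of each gene, lie to the right of those of their paralogs, and Pls3 lies below 0.

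The genes around CD45 in the same pathways moved in part. Of 24 measured Src-family kinases, phosphatases and adaptors, 8 were called higher (33.3%) and 0 lower, beside 3.43% and 1.95% of all genes; at an unadjusted limma p under 0.05 the counts were 15 and 1. Their median log2 change was 0.66. Plcg2, a phospholipase that acts downstream of Syk and Btk, was at 795 and 917 on the Hemangioblast arrays and at 132 and 75.1 on the hCD4 arrays (log2 change 2.91, SE 0.266, adjusted p = 0.000703). The adaptor Dok2, a brake on kinase signals in myeloid cells, rose by 2.71 (SE 0.245, adjusted p = 0.000686) and the adaptor Skap2 by 1.83 (SE 0.169, adjusted p = 0.000703). Pstpip1, which links a phosphatase to WASP, rose by 2.20 (SE 0.254, adjusted p = 0.00221), while its other probe set did not pass (adjusted p = 0.12). The other 4 called were Ptpn6, Inpp5d, Lcp2 and Btk, named after their values were seen. The measured Src-family kinases, the class of enzyme on which CD45 acts, did not pass: Fyn had a log2 change of 0.54, Fgr 0.74, Src 0.0017, Blk -0.14 and Yes1 -1.04. A second, dimmer probe set of Blk had 0.97, with groups that did not overlap (adjusted p = 0.328).

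Of 44 measured genes of actin assembly and bundling, 9 were called higher (20.5%) and 1, Pls3, lower, at a median log2 change of 0.34. Gsn, which encodes the filament-severing protein gelsolin, had the largest rise, from 31.8 and 51.4 to 666 and 814 (log2 change 3.73, SE 0.273, adjusted p = 0.000312). Its hCD4 values were dim, and the change was 4.15 and 2.93 with constants of 1 and 64. Fermt3, the kindlin of blood cells that activates integrins, rose by 2.19 (SE 0.184, adjusted p = 0.000532), Tmsb4x, an actin-monomer buffer, by 1.95 (SE 0.164, adjusted p = 0.000532) and Myo1f, a myosin of leukocytes, by 2.33 (SE 0.253, adjusted p = 0.00155). Wipf1, the binding partner that stabilises WASP, named after its values were seen, was at 452 ± 101 (SD, n = 2) against 70.5 ± 0.553 and rose by 2.42 (SE 0.261, limma adjusted p = 0.00155). The other 34 did not pass, with a wide range of log2 changes. Cytoplasmic beta-actin (Actb) had a log2 change of 1.51 (adjusted p = 0.173) with groups that did not overlap, and 0.86 by another probe set, whereas gamma-actin (Actg1) had 0.08. Hcls1, an actin-binding protein of blood cells, had 1.14 and Nckap1, of the WAVE complex, -0.84 (adjusted p = 0.0751 and 0.088). These 4 were named after their values were seen. The 10 calls of this list became 6, 6 and 5 without Hemangioblast replicate 2, hCD4 replicate 1 and hCD4 replicate 2. They also became 5 without scaling or without an intensity trend, and 16 with dim probe sets left out.

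**Figure D5:**
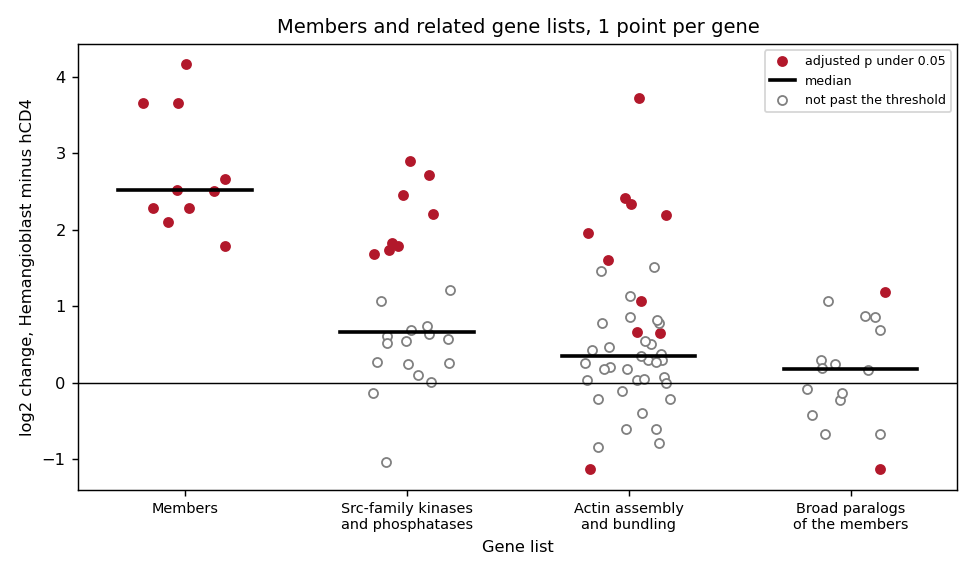
Log2 change, Hemangioblast minus hCD4, of the 10 members and of the measured genes of the 3 related lists, 1 point per gene (red where the adjusted p is under 0.05), with the median of each list as a black bar. The medians are 2.51 for the members, 0.66 and 0.34 for the kinase and actin lists and 0.17 for the paralogs; the lists share some genes.

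These genes are expressed in many leukocytes, so markers of single lineages were read on the same arrays. Of 11 macrophage markers 5 were called higher, and their summed scaled intensity was 4488 to 5787 on the Hemangioblast arrays and 1670 to 1879 on the hCD4 arrays. The markers called include Csf1r, the receptor for macrophage growth factor, and Adgre1, which encodes F4/80; Marco was near the floor in both groups, at 10.9 and 12.5. Of 8 erythroid markers 6 were called higher, with summed intensities of 37730 to 40330 against 13170 to 14010, and of 4 megakaryocyte markers 3, with 1191 to 1288 against 237 to 306. Lymphoid markers gave 0 calls in limma, with 0 of 11 T cell, 0 of 8 B cell and 0 of 5 natural killer cell markers past the threshold and 2, 1 and 0 higher at an unadjusted p under 0.05. With 3.43% of all genes called higher, 0 calls in lists of this length is near the background, and 7 of the T cell and 4 of the B cell markers had a mean under 100 in each group. The summed intensities of the T cell markers were 2528 to 2919 against 2421 to 2574, and those of the natural killer cell markers 560 to 685 against 517 to 541. Those of the B cell markers were 2359 to 2675 against 2117 to 2242. The T cell sums are carried largely by Zap70, at 1608 and 1664 against 1672 and 1661. Ms4a1 (1118 and 919 against 1023 and 1110) and Pax5 (520 and 791 against 624 and 647) carry most of the B cell sums. The sums therefore say little about the other markers of these lists. The 2675 includes Vpreb1 at 695 on Hemangioblast replicate 1, against 155 on replicate 2.

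Neutrophil markers gave 1 call of 10, Csf3r, with summed intensities of 1460 to 1774 against 1287 to 1490, and mast cell markers 0 of 7 (1 at an unadjusted limma p under 0.05), with 777 to 816 against 602 to 777. Of 6 endothelial markers 2 were called higher, Cd34 and Tie1, and 0 lower, beside 3.43% and 1.95% of all genes. The sums were 2646 to 2953 against 1669 to 1997. Cdh5 and Tek lay the other way, at log2 changes of -0.53 and -0.39, and Pecam1 and Emcn had 0.77 and 0.14, none of them called. Of 8 pluripotency markers 2 were called lower, Pou5f1 (log2 change -2.79, limma adjusted p = 0.00663) and Dppa5a (-2.08, adjusted p = 0.0136), and Nanog had -1.49 (adjusted p = 0.137). The hCD4 replicates lay far apart, at 1526 and 585 for Pou5f1, 1397 and 745 for Dppa5a and 444 and 141 for Nanog. Sox2, Tdgf1 and Zfp42 were also higher on hCD4 replicate 1, and Esrrb and Fgf4 on replicate 2. The sums of the 8 markers, 4373 to 4505 against 5700 to 7460, are carried largely by Esrrb, at 3343 and 3476 against 3165 and 3579. The part of any of these cell types in the rise of the 10 genes was not tested.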

How the data were processed

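Total RNA (20 ug) was extracted with TRIzol and labelled without amplification, per the labels. Each probe set has 1 linear intensity per array, as deposited by the authors; how it was computed is not given in the sources used here. All 4 value columns were used. After 66 control probe sets of 12488 were left out, each array was scaled to a common trimmed mean (2% trimmed at each end; factors 0.936 to 1.09), and 16 was added before taking log2. limma 3.58.1 in R 4.3.3 (lmFit, eBayes with an intensity trend, no block) compared the groups over all 12422 probe sets, two-sided, with Benjamini-Hochberg adjustment and a threshold of 0.05; a permutation test of 2 against 2 arrays cannot go below p = 0.333. The fit was tested on simulated data. No dim probe sets were filtered. One related list, fixed in the design, is not reported here. Gene symbols come from the platform annotation, and 10833 probe sets have 1 symbol, 396 several and 1193 none. Changes are on the log2(intensity + 16) scale, which understates those of dim genes. Promoter windows come from RefSeq. The members, lists, motifs and markers were chosen with earlier results of these data known, so counts over them are descriptions. All members and their probe sets, every listed paralog, and up to 4 called genes per list and direction with the smallest adjusted p are named; others are named to fill out a list or marker count after their values were seen. Alternatives were other constants (1 and 64), median, quantile or no scaling, leaving out probe sets with a mean under 100, no trend, a replicate block, the probe set of smallest adjusted p and each array left out. Figures were drawn with matplotlib 3.10.9.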

Additional observations from a re-analysis of the deposited data

How the results depend on the processing

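The 10 calls among the 10 member genes held under every alternative except leaving out Hemangioblast replicate 2 (range 9 to 10 with 1 array left out), and the 13 of 17 member probe sets called ranged from 11 to 13. Taking the probe set of smallest adjusted p could only keep the gene calls, since all 10 had passed by the brightest. Leaving out dim probe sets kept Ptprc, Cd53 and Lsp1 only through their Hemangioblast intensities. The 14 probe sets at 2-fold in all pairings ranged from 12 to 15. The members' median log2 change of 2.51, a value added after the data were seen, was 2.21 with a constant of 64 and ran from 2.34 to 2.73 with 1 array left out. The count of all probe sets called (556) was 272 without scaling (222 higher, 50 lower, against 362 and 194), 853 with dim probe sets left out and 220 without an intensity trend (188 higher, 32 lower), and 219 to 517 with 1 array left out. The 8 calls of the kinase and phosphatase list ranged from 6 to 10. The 10 calls of the actin list were 5 without scaling, 16 with dim probe sets left out, 5 without a trend and 5 to 11 with 1 array left out. The 2 calls among paralogs were 5 with a constant of 1, 0 without scaling, 6 with dim probe sets left out, 0 without a trend and 0 to 5 with 1 array left out.

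Changes of sign were seen in 4 features that never passed, and only with 1 array left out: the dim Vav1 probe set (-0.99 to 0.65), Cd81 (-0.032 to 0.40), Rac3 (-0.37 to 0.21) and Vav2 (-0.42 to 0.15). Replicate numbers in the titles gave no sign of pairing (correlation of deviations of same-numbered arrays across probe sets -0.0078, with 2 pairs). With the replicate block the calls were 10 of 10 member genes, 13 of 17 member probe sets, 710 of all probe sets and 4 among paralogs. The cause of these shifts was not tested. Leaving out an array leaves 1 array in its group, assumed to vary like the other 2.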
